A study of Mus musculus with 9 samples.

Results

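The genes of mitochondrial protein import were described in whole tibialis anterior, a fast muscle at the front of the shin, from MCU knockout, MCUb knockout and control mice. Members were all measured genes whose symbol begins with Timm or Tomm and a digit, plus Gfer, Chchd4, Aifm1, Pam16, Dnajc19, Grpel1, Samm50, Mtx1, Mtx2, Mipep, Pmpca and Pmpcb. The rule found 37 of the 19505 named genes of the array, each with a single probe set, which is the group of probes that reads 1 gene. No measured value entered the rule, although the set was drawn up with earlier results of these arrays known, the low Gfer in MCU knockout among them.

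The groups were MCU knockout (MCU-/-, MCUb+/+), MCUb knockout (MCU+/+, MCUb-/-) and control (MCU+/+, MCUb+/+), each on 3 Clariom S arrays, all of 2-month-old mice on a C57/BL6 background. MCU forms the pore through which calcium enters the mitochondrial matrix, and MCUb is a paralogue of MCU in the same channel complex. The labels name no Cre or promoter, so whether the deletions were confined to muscle is not stated, and whether each array holds its own animal is not stated either. P-values therefore cover only the variation from array to array, part of which can be technical.

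Values were the deposited signals, read as log2, so a difference of 1 is a 2-fold change. Different probe sets bind their targets with different strength, so the levels below are compared between groups for the same gene. Signals over the 95th percentile of an array's own 23 background sets, a limit between 5.87 and 5.92, were taken as above background. On each array between 45.3% and 45.9% of the 22206 probe sets tested lay above it. Mcu stood at 6.80, 6.98 and 7.06 on the MCU knockout arrays, at 10.71, 11.06 and 10.81 on the MCUb knockout arrays and at 10.38, 10.96 and 10.46 on the control arrays. The gene of MCUb was not analysed here. Muscle markers were high on every array, with a mean log2 level of Acta1, Ckm, Myh4, Myh1, Mylpf, Tnnt3, Pvalb and Atp2a1 between 18.40 and 18.50 in MCU knockout, between 18.38 and 18.52 in MCUb knockout and between 18.02 and 18.48 in control. Satellite cell markers Pax7 and Myf5 and the adipocyte markers Plin1 and Cidec were not above background on any array. Adipoq, the other adipocyte marker measured, was above background on some arrays but not on all 9. Control replicate 3 stood apart, with the lowest mean correlation to the other arrays (0.978, against 0.985 to 0.988 for the other 8) and an array weight of 0.436. Averaged over Uty and Kdm5d, which lie on the Y chromosome, the level was 7.24 to 7.80 on MCU knockout replicates 2 and 3 and MCUb knockout replicate 1, against 3.01 to 3.89 on the other 6 arrays.

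Nearly all mitochondrial proteins are made in the cytosol and must be carried across the organelle's membranes. The TOM complex is the entry pore of the outer membrane. From there, proteins with a presequence pass the TIM23 complex and are pulled into the matrix by a chaperone motor, where peptidases remove the presequence. Carrier proteins travel with small TIM chaperones to the TIM22 complex, and barrel proteins are inserted by the sorting and assembly machinery. Small cysteine-rich proteins of the intermembrane space are held there by a disulfide relay: CHCHD4 oxidises them, the sulfhydryl oxidase GFER re-oxidises CHCHD4, and AIFM1 binds CHCHD4. Muscle depends on this supply for its respiratory chain.

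The start regions are given for 4 members taken up below. These are Gfer with its relay partner Chchd4, and Tomm70a and Tomm34, whose means differed from control by similar amounts in both knockouts. Other members, Tomm22 among them, did so too, and both comparisons share the same 3 control arrays. Sequences are from RefSeq (GRCm38.p6), 5′ to 3′ on the gene's strand, from 250 bases before to 50 bases after the annotated start. Capitals mark matches to motifs searched on both strands, those of NRF1 (GCGCA and GCGC with any 1 base between them, or GCGC and TGCGC likewise), GABPA (CCGGAAG or CTTCCGG), YY1 (AAGATGGC or GCCATCTT) and ESRRA (TCAAGGTCA or TGACCTTGA), 4 transcription factors known to act on genes of mitochondrial proteins. Matches of different motifs overlapped 0 times in the members' windows. The Gfer window (chr17:24696107-24696406, minus strand) held no match, the Chchd4 window (chr6:91473374-91473673, minus strand) held 1 of NRF1, the Tomm70a window (chr16:57121464-57121763, plus strand) held 2 of GABPA, and the first of 2 Tomm34 windows (chr2:164071120-164071419, minus strand) held 1 of GABPA. The other Tomm34 window (chr2:164071053-164071352), which overlaps the first and is not printed, held 2 of GABPA.
Gfer: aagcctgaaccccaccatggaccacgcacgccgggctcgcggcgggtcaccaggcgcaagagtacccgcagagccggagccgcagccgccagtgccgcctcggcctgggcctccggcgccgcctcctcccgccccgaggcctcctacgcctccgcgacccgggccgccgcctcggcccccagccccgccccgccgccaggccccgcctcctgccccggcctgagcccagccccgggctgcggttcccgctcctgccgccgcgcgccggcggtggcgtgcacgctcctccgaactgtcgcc
Chchd4: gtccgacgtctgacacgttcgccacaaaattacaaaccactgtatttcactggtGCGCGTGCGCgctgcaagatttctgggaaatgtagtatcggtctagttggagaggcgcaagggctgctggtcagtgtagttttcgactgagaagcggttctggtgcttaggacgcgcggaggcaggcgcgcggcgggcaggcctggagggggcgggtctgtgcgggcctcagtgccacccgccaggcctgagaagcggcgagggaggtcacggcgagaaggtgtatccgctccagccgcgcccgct
Tomm70a: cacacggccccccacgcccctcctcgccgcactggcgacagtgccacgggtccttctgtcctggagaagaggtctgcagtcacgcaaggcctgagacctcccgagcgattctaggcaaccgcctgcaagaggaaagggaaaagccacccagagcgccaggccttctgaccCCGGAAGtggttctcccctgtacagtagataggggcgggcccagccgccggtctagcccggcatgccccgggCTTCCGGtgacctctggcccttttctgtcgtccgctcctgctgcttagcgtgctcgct
Tomm34: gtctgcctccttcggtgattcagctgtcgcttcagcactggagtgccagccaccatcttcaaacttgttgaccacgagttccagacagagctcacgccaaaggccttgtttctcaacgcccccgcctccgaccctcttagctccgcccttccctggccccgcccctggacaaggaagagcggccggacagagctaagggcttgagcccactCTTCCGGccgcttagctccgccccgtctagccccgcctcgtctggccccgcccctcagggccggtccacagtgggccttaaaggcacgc

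Of the 37 members, 34 had such a window in the table, and Timm21, Tomm40l and Tomm7 did not. The GABPA motif was found for 14 of the 34 (41.2%), against 9.93% of 27025 genes with a window and 12.9% of 17492 protein-coding ones. The 14 came from several steps of the pathway: the outer membrane receptor genes Tomm22 and Tomm70a, Tomm34, Mtx1 and Mtx2, the small TIM genes Timm10, Timm10b, Timm8a2 and Timm8b, Timm23, Timm29, Grpel1, Pmpca and Pmpcb. The NRF1 motif was found for 4 (Chchd4, Pam16, Timm8b and Tomm20), or 11.8% against 5.19% of all genes and 7.17% of protein-coding ones. YY1 was found for Mtx1 and Timm50 (5.88%, against 3.19% of all genes and 3.57% of protein-coding ones). ESRRA was found for Timm8b (2.94%, against 0.466% and 0.377%). The median GC content was 59.2% in the members' windows against 52.7% over all genes, and the Gfer window had 80.3%. These are counts of letters, and no binding was measured.

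Gfer, the oxidase that regenerates the relay, was the only member past the threshold in any comparison, and it was low in the MCU knockout alone. It read 8.30, 8.50 and 8.66 on the MCU knockout arrays, 9.93, 10.70 and 10.15 on the MCUb knockout arrays and 9.82, 10.53 and 10.02 on the control arrays. All 3 MCU knockout arrays lay below all 6 others, while MCUb knockout and control overlapped. The mean was 8.49 ± 0.18 in MCU knockout, 10.26 ± 0.40 in MCUb knockout and 10.12 ± 0.37 in control (SD, n = 3 each). Against control, Gfer fell by 1.63 on the log2 scale in the MCU knockout (SE 0.25, 95% interval -2.18 to -1.09), or 3.10-fold, with an adjusted p of 0.0319 in limma. Between the knockouts the direct test gave a log2 difference of -1.77 (SE 0.25, interval -2.32 to -1.22, adjusted p = 0.0163), or 3.42-fold lower in MCU knockout. In MCUb knockout against control the difference was 0.14 (SE 0.25, interval -0.41 to 0.69, adjusted p = 0.900). Exact permutation tests, two-sided, gave p = 0.1 for MCU knockout against control and against MCUb knockout, the smallest that 3 arrays against 3 allow, and p = 0.6 for MCUb knockout against control.

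The size of the Gfer difference moved little between settings, and its adjusted p lay near the threshold. Without 1 array, the difference between MCU knockout and control lay between -1.78 and -1.43, and it was not past the threshold without control replicate 1 (adjusted p = 0.0561), control replicate 3 (0.0722), MCU knockout replicate 1 (0.0943), 2 (0.161) or 3 (0.111), or MCUb knockout replicate 3 (0.0709). Between the knockouts it lay between -1.94 and -1.55, and was not past it without MCU knockout replicate 1 (adjusted p = 0.0790), 2 (0.0772) or 3 (0.0717), or MCUb knockout replicate 2 (0.0813) or 3 (0.0866). With the Y-linked level in the fit the differences were -1.51 (adjusted p = 0.273) and -1.71 (adjusted p = 0.0572). No control array carried the Y-linked signal, so this level is partly confounded with genotype. By array, Gfer was at 8.30 on the MCU knockout array without the Y-linked signal and at 9.93 on the MCUb knockout array with it.

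Its partners in the relay gave other values. Chchd4, the import receptor that Gfer serves, read 8.66, 8.28 and 8.07 in MCU knockout, 7.95, 8.20 and 8.22 in MCUb knockout and 8.76, 8.15 and 8.73 in control, with overlapping groups. Its log2 difference from control was -0.21 (SE 0.23, interval -0.71 to 0.29, adjusted p = 0.775) in MCU knockout and -0.43 (interval -0.92 to 0.07, adjusted p = 0.638) in MCUb knockout. In MCU knockout it lay between -0.41 (without control replicate 2) and -0.077 (without MCU knockout replicate 3) with 1 array left out, and was -0.11 without control replicate 1, -0.12 without control replicate 3 and -0.37 without MCU knockout replicate 1. Over all 17 alternatives it lay between -0.41 and -0.015. Aifm1, the flavoprotein that binds Chchd4, averaged 14.43 ± 0.27 in MCU knockout, 14.24 ± 0.17 in MCUb knockout and 14.41 ± 0.06 in control. Its difference was 0.02 (interval -0.40 to 0.44) in MCU knockout, with a sign that turned under 3 of the 17 alternatives, and -0.18 (interval -0.59 to 0.24) in MCUb knockout, or -0.081 without MCUb knockout replicate 1. The plot of the relay genes by array shows these 3 members on axes of equal span.

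**Figure D1:**
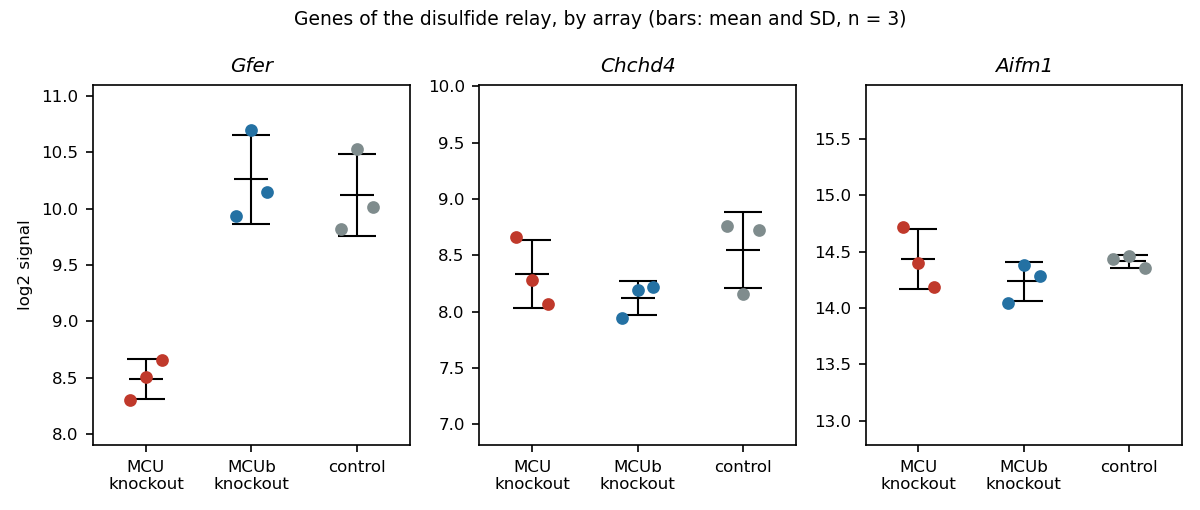
Log2 signal (y axis) of Gfer, Chchd4 and Aifm1 on each array (points) of MCU knockout, MCUb knockout and control muscle, with mean and SD (bars, n = 3). The 3 MCU knockout points of Gfer sit between 8.30 and 8.66, below the other 6 arrays at 9.82 to 10.70, while the groups overlap for Chchd4 and Aifm1.

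Genes whose products the relay oxidises were looked up from a list of 21, all measured and none a member. In MCU knockout 16 lay below control and 5 above, with a median log2 difference of -0.07, against -0.02 over all probe sets, and 0 passed the threshold. In MCUb knockout 14 lay below and 7 above (median -0.10, against -0.03 over all probe sets), again with 0 past it. Over all probe sets, 52.4% lay below control in MCU knockout and 54.0% in MCUb knockout. Cmc1, a copper-binding factor of cytochrome c oxidase assembly, had the smallest p in MCU knockout, with 10.72, 10.84 and 11.09 in MCU knockout and 11.32, 11.18 and 11.46 in control (difference -0.44, SE 0.19, adjusted p = 0.474). Chchd5 (adjusted p = 0.474) and Coa4 (adjusted p = 0.483) followed, but neither was above background on any array, so no difference is given. Both entered the counts above. In MCUb knockout, Ndufs5 of complex I had 17.26, 17.31 and 17.34 against 16.88, 17.19 and 16.05 in control (difference 0.60, SE 0.26, adjusted p = 0.593), and Cox17, the copper chaperone of cytochrome c oxidase, was at 0.56 (adjusted p = 0.620). The smallest p there was that of Coa4 (adjusted p = 0.534). Between the knockouts, Chchd5 (adjusted p = 0.748), Ndufb7 of complex I (0.38, adjusted p = 0.887) and Cmc2 (-0.54, adjusted p = 0.936) had the smallest p.

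Over the 37 members, 1 of 37 (Gfer) passed between MCU knockout and control, where 0.14% of all probe sets did (0.288% of those above background on all 9 arrays). Of MCUb knockout against control 0 of 37 passed, where 0.0225% (0.0576%) did, and between the knockouts 1 of 37 (Gfer) passed, where 0.158% (0.288%) did. At an unadjusted p under 0.05 in limma the counts were 8 of 37 in MCU knockout against control (10.1% of all probe sets, and 13.3% of the 8684 above background on all arrays), 4 of 37 in MCUb knockout against control (8.11% and 10.4%) and 2 of 37 between the knockouts (5.7% and 8.13%). The 8 were Tomm70a, Timm44 and Timm50 above control, and Gfer, Timm10b, Timm21, Tomm34 and Tomm20l below it, the last not above background on any array. That count rested on single arrays: it was 2 without control replicate 3, 4 without control replicate 1, 4 with MCU knockout replicate 3 left out, and 5 when MCU knockout replicate 2 was left out, or any 1 of the MCUb knockout arrays. It reached 10 when control replicate 2 was left out, and was 7 without MCU knockout replicate 1. In MCUb knockout the 4 were Tomm70a, Timm44 and Mtx2 above control and Tomm34 below it, and the count was 1 without control replicate 3 and 6 without control replicate 2. Between the knockouts they were Gfer and Mtx2, and the count was 1 without MCU knockout replicate 2. Groups did not overlap for 6 of 37 members in MCU knockout against control (13.4% of all probe sets, 15.9% of those above background), 6 of 37 in MCUb knockout against control (12.7% and 14.4%) and 3 of 37 between the knockouts (12.8% and 15%).

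The members as a set shifted little. The median log2 difference was -0.12 in MCU knockout against control (24 of 37 below) and -0.11 in MCUb knockout against control (23 of 37 below), where all probe sets had -0.02 and -0.03. Between the knockouts it was -0.02, against 0.01 over all probe sets. Of all probe sets, 52.4% lay below control in MCU knockout and 54.0% in MCUb knockout. Of those above background on all 9 arrays, these shares were 52.5% and 49.5%, with medians of -0.02 and 0.004. Of the 33 members above background on all 9 arrays, 20 lay below control in each knockout, with medians of -0.13 and -0.11. Both comparisons with control share the same 3 control arrays. The spread within groups was modest, with a median SD of 0.21 over the members, between 0.11 and 0.45, against 0.31 for the probe sets above background on all arrays. Leaving Gfer aside, the 95% interval of 30 of the other 36 members lay within a 2-fold change in MCU knockout against control, of 31 in MCUb knockout against control and of 34 between the knockouts. The widest reached -1.42 for Tomm34 and 1.33 for Timm50 in MCU knockout. These intervals are per gene and are not adjusted for the number of genes. The 36 include Timm9, Timm8a2 and Tomm20l, which were not above background on any array, so their intervals bound no change in expression. The smallest difference past the threshold over all probe sets was 1.20 in MCU knockout against control, 1.67 in MCUb knockout against control and 1.11 between the knockouts. No member other than Gfer differed by that much.

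**Figure D2:**
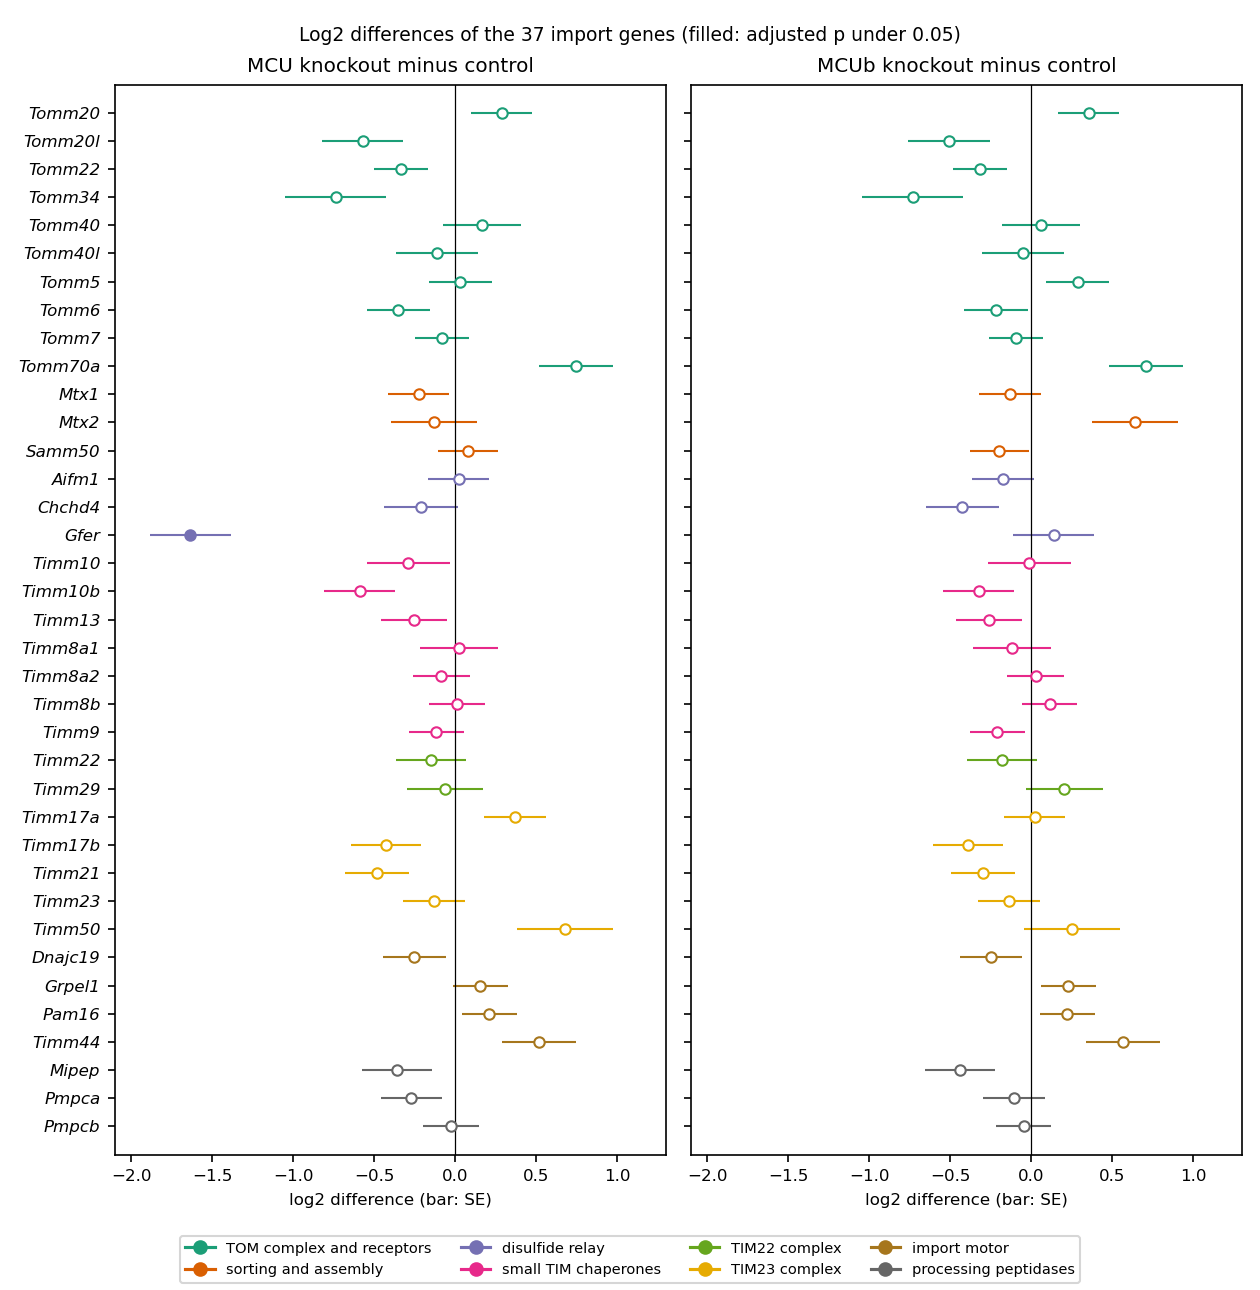
Log2 difference (x axis) of each of the 37 import genes with its SE (bar), MCU knockout minus control on the left and MCUb knockout minus control on the right, coloured by role; filled points passed an adjusted p of 0.05. Gfer at -1.63 is the only filled point, and the other members lie between -0.74 and 0.74.

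In the outer membrane complex, Tomm70a, the receptor for carrier precursors brought by cytosolic chaperones, was higher in mean in both knockouts without passing the threshold. It read 10.19, 10.37 and 10.58 in MCU knockout, 10.20, 10.58 and 10.26 in MCUb knockout and 9.86, 9.87 and 9.17 in control. All 6 knockout arrays lay above the 3 control arrays. The log2 differences were 0.74 (SE 0.23, adjusted p = 0.345) and 0.70 (adjusted p = 0.534), and 0.51 and 0.47 without control replicate 3, the lowest array. Between the knockouts the difference was within the spread, with an interval of -0.46 to 0.54.

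Tomm34, a cytosolic co-chaperone that binds precursors, stood on the other side of control. It read 6.72, 7.72 and 7.44 in MCU knockout, 7.55, 7.51 and 6.84 in MCUb knockout and 8.01, 7.62 and 8.46 in control, so that only MCUb knockout did not overlap with control. The differences were -0.74 (SE 0.31, adjusted p = 0.472) and -0.73 (adjusted p = 0.590), and -0.52 in each knockout without control replicate 3, its highest array. In MCU knockout it was -0.45 without MCU knockout replicate 1, the lowest array. Tomm22, the central receptor that docks presequence receptors to the pore, showed a smaller gap with less spread: 11.01, 11.20 and 11.17 in MCU knockout, 11.05, 11.24 and 11.13 in MCUb knockout, and 11.37, 11.41 and 11.60 in control. All 6 knockout arrays lay below the controls, by -0.33 (SE 0.17, adjusted p = 0.527) and -0.32 (adjusted p = 0.634) in mean. Tomm20, the presequence receptor, had differences of 0.29 (adjusted p = 0.626) and 0.35 (adjusted p = 0.638), with overlapping groups, and the first was 0.17 without control replicate 3.

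The pore gene Tomm40 averaged 8.69 ± 0.48 in MCU knockout, 8.58 ± 0.23 in MCUb knockout and 8.52 ± 0.10 in control. Its paralogue Tomm40l averaged 6.11 ± 0.42, 6.17 ± 0.36 and 6.22 ± 0.20 in the same groups and was above background on 8 of the 9 arrays. Of the small subunits of the pore, Tomm7 averaged 17.19 ± 0.09 in MCU knockout, 17.17 ± 0.10 in MCUb knockout and 17.27 ± 0.12 in control. Tomm5 stood at 0.29 (adjusted p = 0.710) in MCUb knockout against control, and Tomm6 at -0.35 (adjusted p = 0.578) in MCU knockout and -0.22 (adjusted p = 0.784) in MCUb knockout. The Tomm5 value was 0.46 without MCUb knockout replicate 1 and 0.19 without replicate 3, and the Tomm6 value in MCUb knockout was -0.13 without its replicate 2. Tomm20l was not above background on any array. In all, 4 of 10 members of this group, Tomm20l included, lay above control and 6 below in MCU knockout. The counts were the same in MCUb knockout, with 0 past the threshold.

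Among genes of the sorting and assembly machinery, Mtx2, a metaxin on the outer membrane, read 10.49, 9.93 and 10.18 in MCU knockout, 10.58, 11.53 and 10.79 in MCUb knockout and 10.53, 10.38 and 10.07 in control. The 3 MCUb knockout arrays lay above the other 6, with replicate 2 the highest by a wide gap. The difference was 0.64 (SE 0.26, adjusted p = 0.578) for MCUb knockout against control and -0.77 (SE 0.26, adjusted p = 0.663) between MCU knockout and MCUb knockout. Without MCUb knockout replicate 2 these were 0.36 and -0.49. Its partner Mtx1 averaged 8.89 ± 0.06 in MCU knockout, 8.98 ± 0.18 in MCUb knockout and 9.11 ± 0.26 in control. Samm50, the channel that inserts barrel proteins, read 13.60, 13.64 and 13.73 in MCU knockout and 13.30, 13.54 and 13.30 in MCUb knockout, groups that did not overlap (0.28, SE 0.18, not past the threshold), while its control arrays, at 13.82, 13.32 and 13.60, overlapped with both.

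The small TIM chaperones carry hydrophobic precursors across the intermembrane space. Timm10b read 9.49, 9.28 and 9.64 in MCU knockout, 9.60, 10.10 and 9.50 in MCUb knockout and 9.81, 10.03 and 10.34 in control. The MCU knockout arrays lay below the controls (-0.59, SE 0.22, adjusted p = 0.418, and -0.45 without control replicate 3), and the MCUb knockout arrays overlapped with both (-0.32 against control, adjusted p = 0.706, between -0.51 without MCUb knockout replicate 2 and -0.19 without control replicate 3, and -0.21 without MCUb knockout replicate 3). Timm10 averaged 10.03 ± 0.33 in MCU knockout, 10.31 ± 0.34 in MCUb knockout and 10.32 ± 0.34 in control. Timm13 stood at -0.25 (adjusted p = 0.697) in MCU knockout and -0.26 (adjusted p = 0.744) in MCUb knockout. These were -0.14 without MCU knockout replicate 1 and -0.11 without MCUb knockout replicate 3. Its partner genes were close to level: Timm8a1, whose human counterpart is mutated in a deafness and dystonia syndrome, averaged 10.04 ± 0.15 in MCU knockout, 9.90 ± 0.45 in MCUb knockout and 10.02 ± 0.26 in control, and Timm8b averaged 8.29 ± 0.20, 8.38 ± 0.09 and 8.27 ± 0.05. Timm9 and Timm8a2 were not above background on any array. Of the 7 members of this group, these 2 included, 5 lay below control and 2 above in each knockout. Those above were Timm8a1 and Timm8b in MCU knockout, and Timm8b and the undetected Timm8a2 in MCUb knockout.

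**Figure D3:**
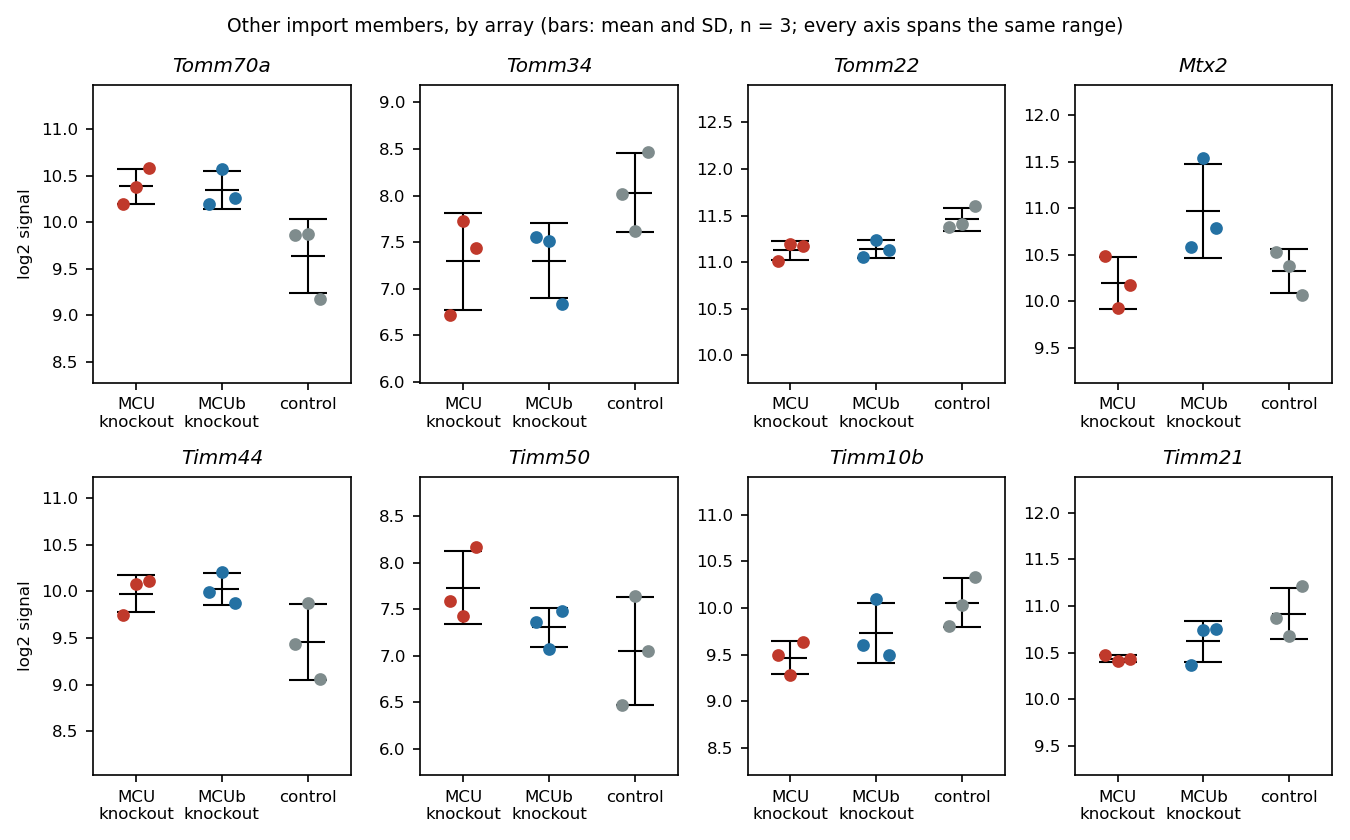
Log2 signal (y axis) on each array (points) of MCU knockout, MCUb knockout and control for Tomm70a, Tomm34, Tomm22, Mtx2, Timm44, Timm50, Timm10b and Timm21, with mean and SD (bars, n = 3) on axes of equal span. Tomm70a is above and Tomm22 below the 3 control arrays on all 6 knockout arrays, while the Mtx2 arrays at 10.58 to 11.53 are those of MCUb knockout.

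In the TIM23 complex, which passes presequence proteins, the paralogues of the channel subunit lay on opposite sides of control in MCU knockout. Timm17a read 14.47, 14.80 and 14.77 in MCU knockout, 14.22, 14.57 and 14.20 in MCUb knockout and 14.23, 14.49 and 14.21 in control (0.37 in MCU knockout, SE 0.19, adjusted p = 0.540). Timm17b read 11.60, 11.43 and 10.97 in MCU knockout, 11.43, 11.15 and 11.53 in MCUb knockout and 11.94, 11.52 and 11.82 in control (-0.43, SE 0.22, adjusted p = 0.536, and -0.39, adjusted p = 0.648, in MCUb knockout). For both genes 1 or more arrays of MCU knockout overlapped with control. Without MCU knockout replicate 3, at 10.97, the Timm17b difference was -0.25. Timm50, the receptor that hands precursors to the channel, spread widely among the 3 control arrays, at 6.47, 7.64 and 7.05, against 7.59, 7.43 and 8.17 in MCU knockout and 7.36, 7.07 and 7.48 in MCUb knockout. Its difference was 0.68 (SE 0.30, adjusted p = 0.478) in MCU knockout against control and 0.42 (not past the threshold) against MCUb knockout. The first was 0.39 without control replicate 1, and the second 0.20 without MCU knockout replicate 3.

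Timm21, which links the channel to the respiratory chain, read 10.47, 10.41 and 10.43 in MCU knockout, 10.36, 10.74 and 10.76 in MCUb knockout and 10.87, 10.67 and 11.21 in control. The MCU knockout arrays lay below the controls (-0.48, SE 0.20, adjusted p = 0.459). Its 3 arrays with the Y-linked signal, at 10.41, 10.43 and 10.36, also lay below the other 6, while 2 of the 37 members (Timm21 and Tomm20l) did not overlap between these arrays and the rest, as did 3.57% of all probe sets and 5.19% of those above background on all arrays. With that level as a covariate the MCU knockout difference was -0.36 (adjusted p = 0.751). Without the covariate, MCUb knockout stood at -0.30 against control (SE 0.20, adjusted p = 0.695), with overlapping groups. That value lay between -0.42 and -0.15 with 1 array left out. Timm23, the channel itself, averaged 14.79 ± 0.20 in MCU knockout, 14.78 ± 0.08 in MCUb knockout and 14.92 ± 0.25 in control. In the TIM22 complex, which inserts carriers, Timm22 averaged 7.10 ± 0.21, 7.06 ± 0.29 and 7.24 ± 0.26 in these groups, and Timm29 7.13 ± 0.39, 7.39 ± 0.14 and 7.19 ± 0.30.

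Of the import motor, 3 of 4 genes lay above control in each knockout, with medians of 0.18 in MCU knockout and 0.23 in MCUb knockout, and 0 passed the threshold. Timm44, which tethers the motor to the channel, read 9.75, 10.08 and 10.11 in MCU knockout, 9.99, 10.21 and 9.87 in MCUb knockout and 9.44, 9.87 and 9.06 in control. Control replicate 2 overlapped with MCU knockout and matched the lowest MCUb knockout array to the decimals given. The differences were 0.52 (SE 0.23, adjusted p = 0.476) and 0.57 (adjusted p = 0.577), and 0.32 and 0.37 without control replicate 3. Pam16, a subunit that restrains the motor, read 14.47, 14.53 and 14.48 in MCU knockout against 14.23, 14.41 and 14.21 in control, groups that did not overlap (0.21, SE 0.17, adjusted p = 0.696). In MCUb knockout Pam16 was at 0.22 against control (SE 0.17, adjusted p = 0.738), with overlapping groups. The fourth gene, Dnajc19, which stimulates the motor's ATPase, was at -0.25 in each knockout (adjusted p of 0.682 and 0.744), and -0.10 in each without control replicate 3 and -0.41 in each without control replicate 2. Grpel1, the nucleotide exchange factor, was at 0.23 (adjusted p = 0.733) in MCUb knockout, and at 0.15 without control replicate 3.

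All 3 peptidase genes lay below control in both knockouts, by small amounts. Mipep, which trims a further stretch after the first cut, read 10.36, 10.49 and 10.18 in MCU knockout, 10.30, 10.26 and 10.22 in MCUb knockout and 10.57, 10.37 and 11.16 in control. The MCUb knockout arrays lay just under the lowest control (-0.44, SE 0.22, adjusted p = 0.620), and the value was -0.21 without control replicate 3. In MCU knockout it was -0.36 (adjusted p = 0.602), and -0.13 without that array. Pmpca, the substrate-binding subunit of the presequence peptidase, was at -0.27 (adjusted p = 0.657) in MCU knockout. Its catalytic partner Pmpcb averaged 17.05 ± 0.15 in MCU knockout, 17.03 ± 0.10 in MCUb knockout and 17.08 ± 0.12 in control.

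The same steps were followed into genes that work beside the members, from lists that hold no member. Of 9 genes listed under matrix and inner membrane chaperones, 3 lay above and 6 below control in MCU knockout. In MCUb knockout 2 lay above and 7 below, with 0 past the threshold in either. Hspa9, the motor's own chaperone, read 14.84, 14.42 and 14.72 in MCU knockout, 14.35, 14.78 and 14.29 in MCUb knockout and 13.88, 14.61 and 13.74 in control (0.58, SE 0.25, adjusted p = 0.474, and 0.40, adjusted p = 0.688). Romo1 (-0.36) and the co-chaperone gene Dnaja3 (-0.38) came next in MCU knockout, and Grpel2 (-0.28) and Hspd1 (-0.33) in MCUb knockout. Between the knockouts Dnaja3 (-0.54), Romo1 (-0.19) and Trap1 (0.23) had the smallest p.

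Of 14 measured proteases and insertases, 8 lay above and 6 below control in MCU knockout, and 7 and 7 in MCUb knockout. Oxa1l, which inserts proteins into the inner membrane from the matrix, read 10.65, 10.59 and 10.58 in MCU knockout, 10.80, 11.12 and 11.05 in MCUb knockout and 11.11, 10.85 and 11.36 in control. The MCU knockout arrays lay below the other 6 (-0.50 against control, SE 0.19, adjusted p = 0.418, and -0.38 against MCUb knockout, adjusted p = 0.903). Htra2 (0.58) and Parl (0.37) followed in MCU knockout. Spg7, a subunit of a matrix-facing protease, was at -1.01 in MCUb knockout against control (SE 0.37, adjusted p = 0.562) and 0.89 in MCU knockout against MCUb knockout (adjusted p = 0.832). Yme1l1 (0.64) and Lonp1 (-0.52) followed in MCUb knockout, and Lonp1 was at 0.48 between the knockouts.

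Of the 7 measured cytosolic chaperones of precursors, 6 lay below control in MCU knockout and 4 in MCUb knockout, with 0 past the threshold. Stip1, which couples the cytosolic chaperones that deliver precursors to Tomm70a, read 15.08, 14.68 and 14.87 in MCU knockout, 15.14, 15.30 and 15.11 in MCUb knockout and 15.67, 15.19 and 15.55 in control (-0.59, SE 0.19, adjusted p = 0.366, and -0.29 in MCUb knockout, adjusted p = 0.698). Ubqln1 was at -0.50 (adjusted p = 0.474) and -0.42 (adjusted p = 0.626), and Ubqln2 at -0.56 (adjusted p = 0.607) in MCUb knockout. Dnaja2 was not above background on any MCU knockout array and was above it on 1 control array, so no difference is given (adjusted p = 0.435). Dnajb1 was at -0.44 between the knockouts (adjusted p = 0.965). In MICOS and outer membrane partner genes, 5 of 11 lay above control in MCU knockout and 6 of 11 in MCUb knockout, with Apool (0.34 and 0.58), Chchd3 (0.24 and 0.39) and Mtch2 (-0.30 in each) at the smallest p and Dnajc11 at 0.11 between the knockouts.

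Genes that track mitochondrial content were divided: 5 of 8 lay above control in MCU knockout and 6 of 8 in MCUb knockout, with medians of 0.08 and 0.11 and 0 past the threshold. Tfam, the mitochondrial DNA packaging factor, was at 0.80 in MCU knockout (SE 0.33, adjusted p = 0.467) and 0.57 in MCUb knockout (adjusted p = 0.663), and Slc25a4 at 0.19 in each. Cycs was at 0.16 in MCU knockout, Ppargc1a at 0.21 in MCUb knockout, and Cs at -0.27 between the knockouts. In whole muscle, fewer cells of a type and less RNA per cell cannot be told apart. Markers of other cell types ranged as follows in mean level: fibroblast markers (3 of 4 measured) from 12.07 to 13.34 in MCU knockout, 12.23 to 12.82 in MCUb knockout and 12.0001 to 12.69 in control; macrophage markers (2 of 3 measured) from 6.02 to 7.02 in MCU knockout, 5.996 to 6.38 in MCUb knockout and 5.46 to 6.18 in control. In MCU knockout both macrophage markers lay above control (0.75 and 0.80), each at an unadjusted p under 0.05 in limma, as 10.1% of all probe sets were. Of these 2, 1 was above background on all 9 arrays. All 3 fibroblast markers also lay above control there (median 0.56), 1 of them at that p, and 0 of either type passed the threshold. Endothelial markers lay between 10.75 and 11.15 in MCU knockout, 10.21 and 11.01 in MCUb knockout and 10.48 and 11.63 in control. Alas2, the only blood marker of 3 measured, was between 7.57 and 7.72 in MCU knockout, 7.54 and 8.18 in MCUb knockout and 8.14 and 8.76 in control. The part of any of these in the Gfer difference was not tested.

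The genes beside Gfer on chromosome 17 gave no call. Among the 5 measured genes on each side in RefSeq order, 0 of 10 passed the threshold in any comparison, and none overlaps with Gfer in the annotation. Syngr3, the nearest on one side, was not above background on any array. Noxo1, the nearest on the other side and a regulator of a superoxide-producing oxidase, read 6.91, 7.12 and 6.37 in MCU knockout, 6.72, 6.21 and 6.21 in MCUb knockout and 5.77, 6.34 and 5.08 in control. Its MCU knockout arrays lay just above the controls, of which 2 were not above background, and the difference of the signals was 1.07 (SE 0.32, adjusted p = 0.342). It was 0.64 in MCUb knockout (adjusted p = 0.620). Of the genes beyond, Tbl3 (-0.13), Ndufb10 of complex I (0.05) and the muscle ribosomal protein gene Rpl3l (0.16) in MCU knockout lay within the spread between arrays.

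**Figure D4:**
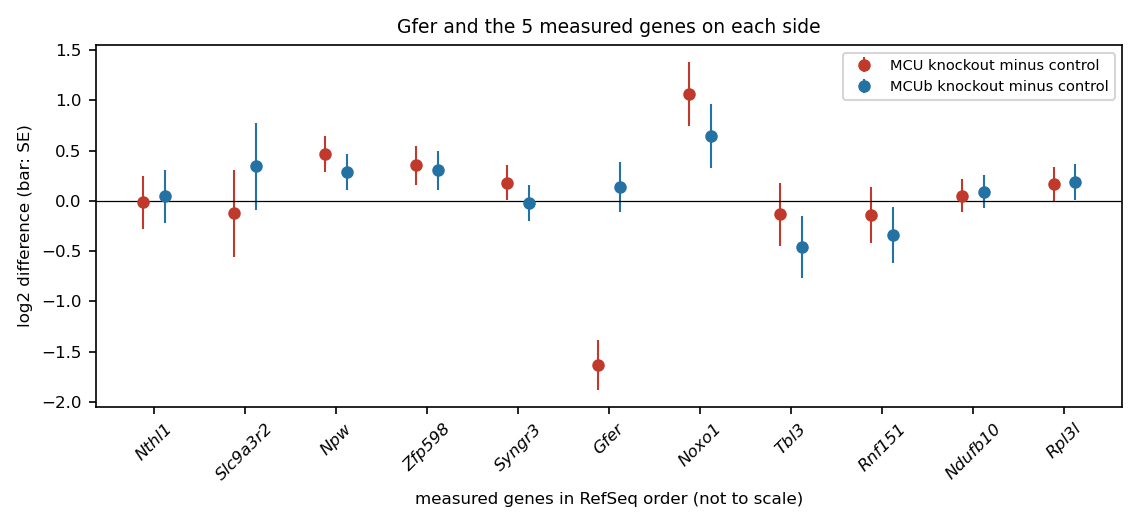
Log2 difference from control (y axis) with its SE (bar) for Gfer and the 5 measured genes on each side of it in RefSeq order (x axis, not to scale), for MCU knockout (red) and MCUb knockout (blue). Gfer at -1.63 in MCU knockout stands below its neighbours, and Noxo1 at 1.07 above them, with 2 of its 3 control arrays not above background; Npw, Syngr3 and Rnf151 were not above background on any array.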

How the data were processed

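Whole tibialis anterior muscle was profiled on 9 arrays, 3 per genotype. Per the submitters' processing notes, the program was Affymetrix Expression Console, and the authors deposited log2 signals, 1 for each probe set on each array. The version and the normalization are not given in the sources used here, and the log2 scale was read from the values (2.33 to 19.9). Trizol extraction and a 3' IVT Pico labelling kit are recorded per the labels' protocols.

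After 6640 control features were set aside from the 28846 values, 22206 probe sets stayed in the tests. Names from the platform annotation (19572 probe sets) were updated through RefSeq (GRCm38.p6), for 19505 genes, keeping the brightest probe set of a gene with several. The deposited values were fitted with limma 3.58.1 (R 4.3.3), using lmFit and eBayes with a mean for each genotype over the 9 arrays and no covariates; the spread had 6 residual and 5.06 prior degrees of freedom. Two-sided p-values were Benjamini-Hochberg adjusted across the 22206 probe sets (threshold 0.05), and 95% intervals used the moderated SE. The script was tested on simulated data. The number of arrays limits the precision.

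The 17 alternatives were quantile normalization, median centring, a dim filter, array weights, a robust prior with trend, the 2 groups alone, a replicate block, the Y-linked level and leaving out each array.

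The members, role groups and lists were chosen with earlier results of these data known; the motifs were chosen later. Named by rule were Gfer, members past the threshold, the 4 of smallest p per direction and comparison, relay and peptidase genes, paralogues, the members of highest and lowest mean signal in each role group (a choice of names only), and the 3 genes of smallest p in each list. Gfer differences are given for every comparison. Others are given for some, not all, of the relay genes, members named for a small p, and members whose difference exceeded its SE. A difference that is not given can therefore exceed its SE.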

Additional observations from a re-analysis of the deposited data

How the results depend on the processing

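Under the 17 alternatives, Gfer kept its direction in MCU knockout against control and against MCUb knockout, with differences of -1.78 to -1.43 and of -1.94 to -1.55. Against control, adjusted p ranged from 0.0225 to 0.273, and the call was lost with array quality weights (-1.55, adjusted p = 0.0536), in the fit of the 2 groups alone (-1.63, 0.0764) and with the Y-linked level in the fit (-1.51, 0.273), leaving 0 members past the threshold in each. Against MCUb knockout it ranged from 0.00726 to 0.0866, and the call was lost with the Y-linked level (-1.71, 0.0572), again leaving 0 members. With 1 array left out the count of members past the threshold was 0 to 1 in both. Gfer in MCUb knockout against control lay between -0.080 and 0.34 with 1 array left out, negative without control replicate 1 or MCUb knockout replicate 2. Aifm1 in MCU knockout turned to -0.020 with array weights, and lay between -0.12 and 0.15 with 1 array left out. No other difference given for a member changed sign or passed the threshold under these alternatives. Over all probe sets, the 31 calls between MCU knockout and control were 16 with the Y-linked level and 20 (without MCU knockout replicate 3) to 98 (without control replicate 2). The 5 in MCUb knockout were 1 with the 2 groups alone and 0 to 20 with 1 array left out (0 without control replicate 1 or MCUb knockout replicate 1 or 3, 20 without control replicate 2). The 35 between the knockouts were 61 with array weights and 13 (without MCU knockout replicate 3) to 43. At an unadjusted p under 0.05, 5 members remained in count with the dim filter or the 2 groups alone and 3 with the Y-linked level, of 8 in MCU knockout. With the replicate block, Gfer was at -1.63 (adjusted p = 0.0225) against control and -1.77 (0.0144) against MCUb knockout; same-numbered arrays did not deviate together (correlations of -0.15 to 0.07), so the numbers were not taken as pairs. The median over the members was -0.031 with the Y-linked level and -0.14 to -0.089 with 1 array left out in MCU knockout against control, -0.14 to -0.021 in MCUb knockout against control (-0.021 without MCUb knockout replicate 1, -0.047 without control replicate 3) and -0.078 to 0.033 between the knockouts, where it was above 0 without MCUb knockout replicate 2, without MCU knockout replicate 1 and with quantile normalization. The cause of the lost calls was not tested; fits with fewer arrays have fewer degrees of freedom.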
